A study of Mus musculus with 6 samples.

Results

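To examine how much liver cell and hepatoma identity the H22 tumours carried, 10 genes were followed in RNA-seq libraries of control and luteolin-treated tumours. They were taken from the deposited table of 21720 gene symbols by name, as liver plasma proteins (Alb, Apoa1, Apoa2, Apob, Ttr, Fgb and Ahsg), oncofetal hepatoma genes (Afp and Gpc3) and the liver transcription factor Hnf4a, and all 10 were listed there. H22 is a mouse line labelled as hepatocellular carcinoma, and its cells were grown under the skin of wild-type female BALB/c mice aged 6 to 8 weeks. Once tumours had a volume of about 50 mm3, the control group received 0.5% carboxymethyl cellulose sodium and the luteolin group 200 mg/kg luteolin, a plant flavonoid, each by gavage in 0.2 mL once a day for 21 days. Each group gave 3 libraries, named control replicates 1 to 3 and luteolin replicates 1 to 3. Whole tumour tissue was sequenced, so that RNA of the mouse host is present beside that of the H22 cells, and a single line was used in all mice. In such bulk tissue, fewer cells of a type and less RNA per cell cannot be told apart. The labels do not say whether each library came from a separate mouse, and p values measure the spread between these libraries.

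Hepatocytes, the main cell type of the liver, secrete most proteins of blood plasma. Albumin (Alb) is the most abundant of these, apolipoproteins A-I, A-II and B (Apoa1, Apoa2, Apob) carry lipids, transthyretin (Ttr) carries thyroid hormone and retinol-binding protein, the fibrinogen beta chain (Fgb) is part of the clot, and fetuin-A (Ahsg) keeps calcium phosphate in solution. Their genes are switched on by liver-enriched transcription factors, among them HNF4α (Hnf4a). Alpha-fetoprotein (Afp), a relative of albumin made in the foetal liver and yolk sac, is silenced after birth and returns in many hepatomas, as does glypican-3 (Gpc3), a heparan sulphate proteoglycan of the cell surface.

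Promoter sequences of 9 of the 10 genes were found in RefSeq (mouse build GRCm38.p6). The positions belong to that build, whereas the submitters' processing notes name mm39, and the sequences serve here to show the genes, not to locate reads. The 250 bases before the start site of 4 genes are shown because these genes represent the patterns described below, Alb and Fgb varying together between libraries, and Afp and Gpc3 each in a way of its own. Capitals mark every match to a short motif of a liver or general factor on either strand (TATAAA on the sense strand alone), and a match is a description of the letters, not a measured binding site. The sequences run 5′ to 3′ on the strand of the gene and were read at chr5:90460620-90460869 (Alb, plus strand), chr5:90490464-90490713 (Afp, plus strand), chr3:83049864-83050113 (Fgb, minus strand) and chrX:52613975-52614224 (Gpc3, minus strand).
Alb: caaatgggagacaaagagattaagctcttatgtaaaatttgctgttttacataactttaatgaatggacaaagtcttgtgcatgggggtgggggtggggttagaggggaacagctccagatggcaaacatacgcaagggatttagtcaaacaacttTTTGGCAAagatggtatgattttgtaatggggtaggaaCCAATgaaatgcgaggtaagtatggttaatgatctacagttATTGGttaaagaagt
Afp: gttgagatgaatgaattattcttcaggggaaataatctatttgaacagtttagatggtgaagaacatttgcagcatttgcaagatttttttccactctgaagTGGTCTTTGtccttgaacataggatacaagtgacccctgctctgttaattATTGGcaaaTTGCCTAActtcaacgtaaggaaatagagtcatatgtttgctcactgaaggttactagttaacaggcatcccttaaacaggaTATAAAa
Fgb: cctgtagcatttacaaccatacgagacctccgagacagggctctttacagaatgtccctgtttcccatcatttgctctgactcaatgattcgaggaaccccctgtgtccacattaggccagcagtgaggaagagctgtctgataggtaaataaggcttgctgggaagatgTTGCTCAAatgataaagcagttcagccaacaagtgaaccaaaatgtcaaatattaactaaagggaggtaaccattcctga
Gpc3: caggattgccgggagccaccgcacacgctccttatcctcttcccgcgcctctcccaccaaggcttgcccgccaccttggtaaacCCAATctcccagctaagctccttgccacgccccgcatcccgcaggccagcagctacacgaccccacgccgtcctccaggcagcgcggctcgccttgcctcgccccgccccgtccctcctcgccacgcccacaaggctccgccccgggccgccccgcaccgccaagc

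The start sites of Alb and Afp, members of the same gene family, lie 29844 bases apart on chromosome 5. The C/EBP core TTGCNNAA was matched in Alb, Afp, Fgb, Apob, Ahsg and 1 of the 2 promoters of Apoa2, against 9.56% of the 32851 RefSeq promoter windows of this length. The HNF4 core CAAAGNCCA was matched in Afp only, at -148 to -140, against 1.7% of all windows, and the FOX core TGTTTAC in 1 promoter of Apoa2, against 3.17%. TATAAA was matched in Afp, Apob and 1 promoter of Apoa2 (7.59% of all windows) and CCAAT in Alb, Afp, Gpc3, Apoa2 and Hnf4a (33.8%). Of these motifs, the window of Gpc3 held CCAAT alone, and its GC content was 71.6%, against 39.2% for Alb, 36% for Afp and a median of 52.4% over all windows. The window of Apoa1 held none of the 5 motifs.

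The libraries held 61081637 to 80442954 counts in total, and 15579 to 16767 genes had a count above 0. Multiples of 4 made up 44.8% of all values between 1 and 40, so that 1 read pair may have been counted as 4 units. The upper limit for a gene at 0 is therefore 3 counts, or 12 if 1 pair is 4 units, and such limits cover counting error only. Levels are given as CPM, the counts per 1e6 of the library total scaled by edgeR's TMM factors, on which 3 counts are 0.0359 to 0.0490 CPM. Once genes with low counts were removed, 14963 entered the comparison of the groups, among them 9 of the 10 genes followed here, all but Hnf4a. Luteolin replicate 2 stood apart in its keratinocyte RNA, with a summed level of 11 keratinocyte genes of 9307 CPM, against 397 and 20.8 CPM in luteolin replicates 1 and 3 and 13.9 to 18.5 CPM in the control libraries.

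Hepatocyte genes were first compared with the label. Of 10 hepatocyte markers (the 7 plasma protein genes, Hnf4a, Serpina1a and Cps1), control replicate 1 had 0 counts for 6 and control replicate 3 for 7, and in both Ttr, Apob, Fgb, Ahsg, Hnf4a and Cps1 were at 0. In control replicate 2 and luteolin replicates 1 and 2 none of the 10 was at 0, and in luteolin replicate 3 the marker at 0 was Hnf4a. The summed level of the 10 markers was 3.45, 73.3 and 1.12 CPM in control replicates 1, 2 and 3 and 166, 34.9 and 39.8 CPM in luteolin replicates 1, 2 and 3. Most of the 10 markers were thus at 0 in 2 of the 6 libraries of tumours labelled as hepatocellular carcinoma. Alb was still present there, at 214 counts in control replicate 1 and 56 counts in control replicate 3. Above 12 counts were 2 of the 10 markers in control replicate 1, 1 in control replicate 3 and 8 to 10 in the other libraries. Of the 5 hepatoma markers, Afp, Gpc3 and Igf2 were above 12 counts in every library, and Dlk1 was between 0 and 20 counts. H19 had no entry in the table of gene symbols.

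Alb varied more between libraries than between groups. It had 3.06, 60.3 and 0.868 CPM in control replicates 1, 2 and 3 and 133, 26.0 and 31.9 CPM in luteolin replicates 1, 2 and 3, a 153-fold span from the lowest to the highest library. Control replicate 2 lay above luteolin replicates 2 and 3, so that the groups overlapped. The mean was 63.5 ± 59.9 CPM in the luteolin group and 21.4 ± 33.7 CPM in the control group (SD, n = 3 each), and the log2 fold change of 1.57 (standard error 1.43) did not pass the test (adjusted p = 0.599 by the quasi-likelihood test of edgeR, adjusted by Benjamini and Hochberg).

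**Figure D1:**
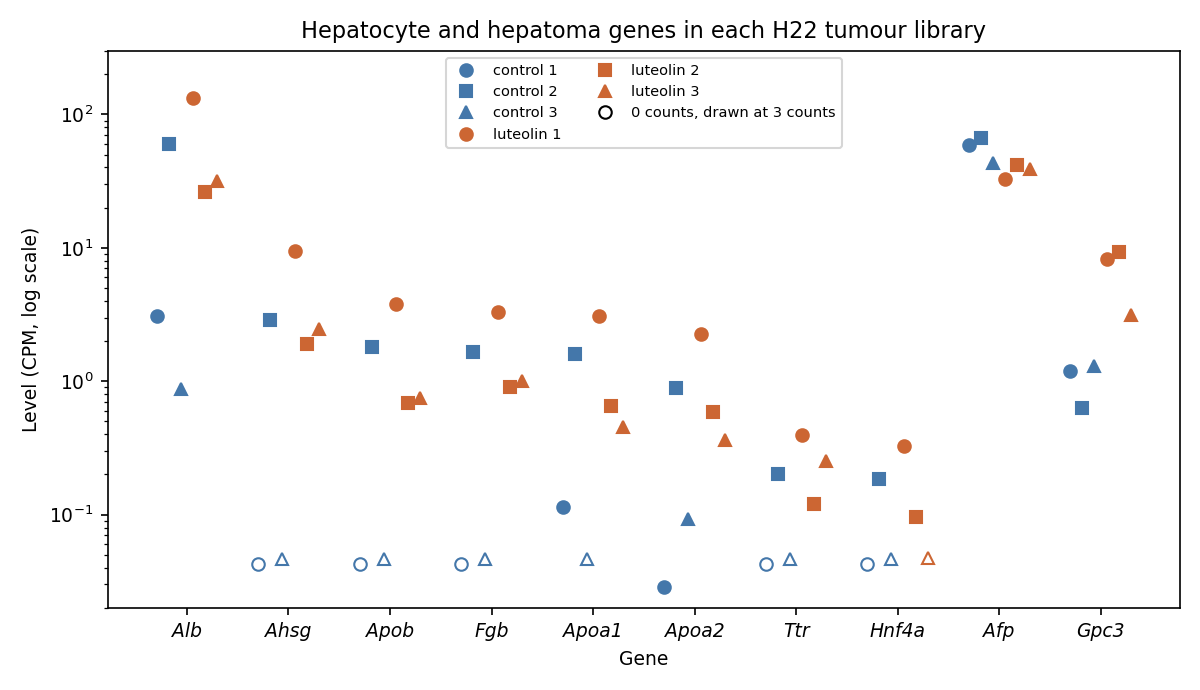
Level of the 10 genes in each library, in CPM on a log scale; each point is 1 library (blue control, orange luteolin, shape for the replicate number), and open points mark 0 counts, drawn at the level of 3 counts. From Alb to Hnf4a, luteolin replicate 1 is highest and control replicates 1 and 3 lie at the bottom, except that for Hnf4a luteolin replicate 3 also had 0 counts, whereas Afp spans 32.7 to 66.7 CPM.

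The other secreted proteins followed the same libraries. Ahsg had 0, 186 and 0 counts in control replicates 1, 2 and 3 and 579, 159 and 156 counts in luteolin replicates 1, 2 and 3. The same replicates of the apolipoprotein B gene, Apob, which holds together low-density lipoprotein particles, had 0, 116 and 0 counts against 232, 57 and 48 counts. Fgb had 0, 108 and 0 counts in the control group and 203, 75 and 64 counts in the luteolin group. For these 3 genes the groups overlapped through control replicate 2, which lay above luteolin replicates 2 and 3, while the other control libraries were at 0. Apoa1, the main protein of high-density lipoprotein, had 8, 103 and 0 counts in the control libraries and 188, 54 and 29 counts in the luteolin libraries. Its partner Apoa2 had 2, 58 and 6 counts in the control libraries and 138, 49 and 23 counts in the luteolin libraries. Control replicate 2 was again second to luteolin replicate 1 for both.

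Ttr had 0, 13 and 0 counts in the control group and 24, 10 and 16 counts in the luteolin group. Hnf4a, the regulator at the top of this programme, had 0, 12 and 0 counts in the control group and 20, 8 and 0 counts in the luteolin group, and was too low to be tested. Where 1 read pair is 4 units, each of these values rests on few read pairs.

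None of the 7 plasma protein genes differed between the groups beyond the spread of the libraries. Their log2 fold changes were 1.57 for Alb, 2.26 for Ahsg (standard error 1.94), 1.54 for Apob (1.88), 1.64 for Fgb (1.83), 1.29 for Apoa1 (1.59), 1.65 for Apoa2 (1.29) and 1.90 for Ttr (1.51), and adjusted p values ran from 0.534 to 0.715 (edgeR's quasi-likelihood test). The study used a threshold of p under 0.05, without adjustment, and a fold change over 2, and there 1 of the 9 tested genes was up-regulated, Gpc3, against 11.3% of all genes tested. Control replicate 2 decided this count. Without it, 8 of these genes met the threshold, the 7 plasma proteins with Gpc3, against 8.38% of all genes tested in that fit. Alb then had a log2 fold change of 5.02 (unadjusted p = 0.00452, adjusted p = 0.243 in edgeR). The remaining control libraries had 0 counts of Apob, Fgb, Ahsg and Ttr. Because the 7 plasma protein genes varied together between libraries, their calls are not separate observations. Without luteolin replicate 1, on the other hand, the log2 fold change of Apoa1 was -0.0466 and that of Alb 0.43. No gene of the 10 was down-regulated at the study's threshold, against 1.52% of all genes tested, and 0 passed an adjusted p under 0.05 in edgeR in either direction, against 1.34% higher and 0.187% lower among all genes tested. At an unadjusted p under 0.05, 2 of the 9 passed, Afp and Gpc3, against 20.5% of all genes tested. DESeq2, which gave no p for Alb, Apob or Fgb, called Gpc3 at an adjusted p under 0.05, and limma's voom called 2 of the 9 (Gpc3 higher and Afp lower).

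**Figure D2:**
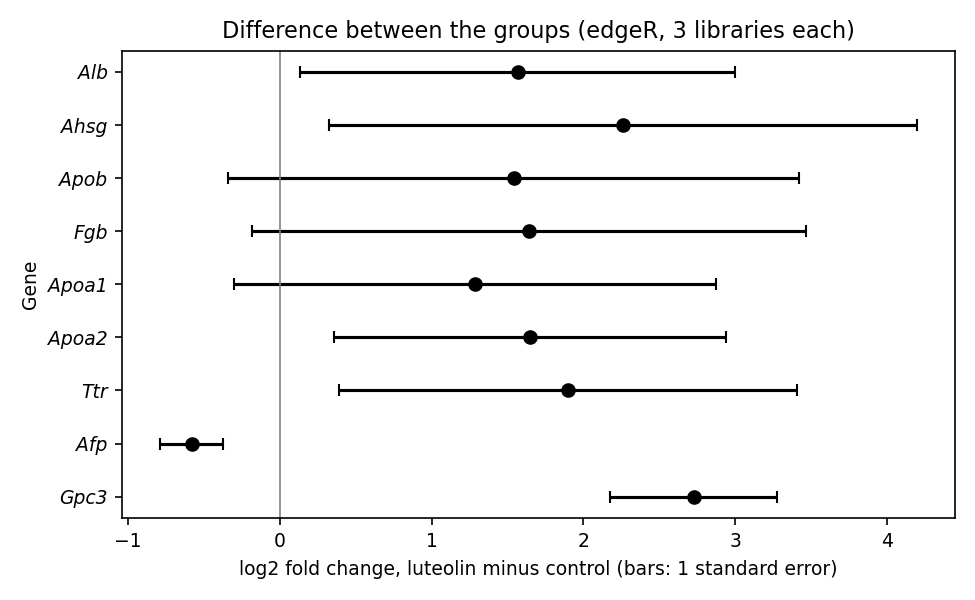
Log2 fold change of the 9 tested genes, luteolin minus control, from edgeR with 3 libraries in each group; bars are 1 standard error. The plasma protein genes lie between 1.29 and 2.26 with standard errors of 1.29 to 1.94, while Gpc3 at 2.73 (0.55) and Afp at -0.58 (0.21) have the narrowest bars.

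Relative to Alb, the liver genes kept similar proportions in the 4 libraries with 2040 or more Alb counts, control replicate 2 and the 3 luteolin libraries, although Alb itself spanned 5.09-fold among them. Ahsg had 4.76 counts per 100 counts of Alb in control replicate 2 (95% interval 3.43 to 6.34) and 7.13 (5.99 to 8.46), 7.31 (5.19 to 10.1) and 7.65 (5.37 to 10.6) in luteolin replicates 1, 2 and 3. These exact binomial intervals take 4 units as 1 read pair and cover counting error only, and each luteolin interval overlapped that of control replicate 2. Overlap does not show that the proportions are equal, and control replicate 2 had the lowest proportion of Ahsg among these libraries. Apob lay between 2.35 and 2.97 counts per 100 counts of Alb, Fgb between 2.50 and 3.45, Apoa1 between 1.42 and 2.64, Apoa2 between 1.13 and 2.25 and Ttr between 0.296 and 0.784. Hnf4a had 0 to 0.368. Afp and Gpc3 did not keep such a proportion, with 24.6 to 161 and 1.05 to 35.9 counts per 100 counts of Alb in the same 4 libraries. These libraries were set apart by their Alb counts after the values had been seen, and the proportions are a description without a test.

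**Figure D3:**
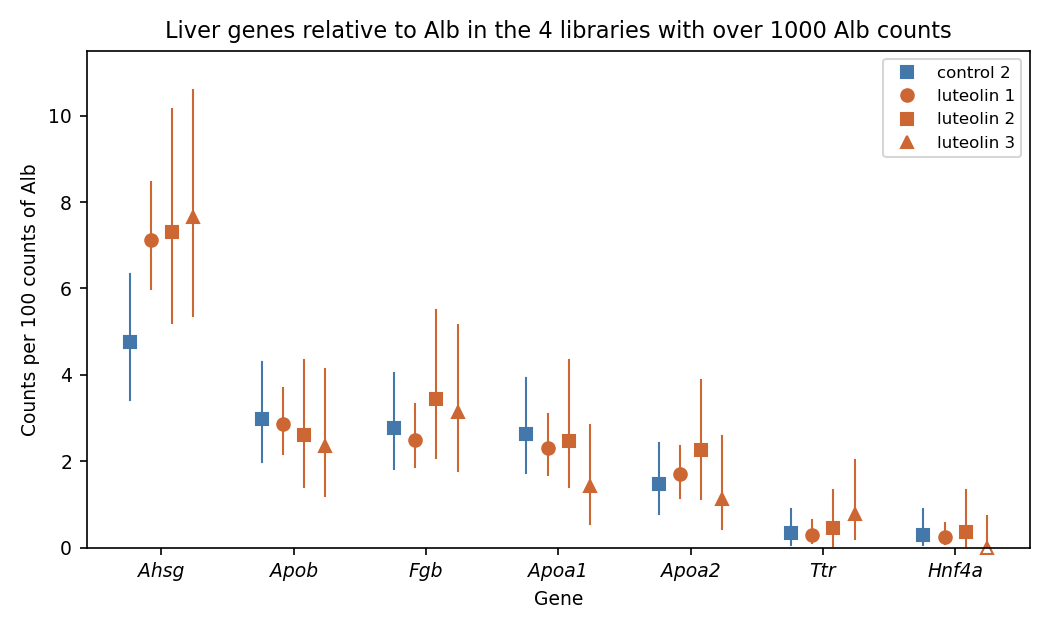
Counts of 7 liver genes per 100 counts of Alb in control replicate 2 (blue) and luteolin replicates 1 to 3 (orange); bars are exact 95% binomial intervals with 4 units taken as 1 read pair, and the open point marks 0 counts. Ahsg lies highest, between 4.76 and 7.65, and within a gene the intervals overlap.

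Afp was the steadiest of the 10 genes. It had 59.4, 66.7 and 43.4 CPM in control replicates 1, 2 and 3 and 32.7, 41.8 and 38.8 CPM in luteolin replicates 1, 2 and 3, a 2.04-fold span. Every luteolin library lay below every control library, as for 12.8% of all genes tested. The means were 37.7 ± 4.67 CPM in the luteolin group and 56.5 ± 11.9 CPM in the control group (SD, n = 3 each). The log2 fold change was -0.58 (standard error 0.21) with an unadjusted p of 0.0269 and an adjusted p of 0.187 in edgeR's quasi-likelihood test, short of the threshold and of a 2-fold change. The library with the most Alb, luteolin replicate 1, had the least Afp, but control replicate 2, next in Alb at 60.3 CPM, had the most Afp.

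Gpc3 had 1.19, 0.633 and 1.30 CPM in control replicates 1, 2 and 3 and 8.24, 9.34 and 3.13 CPM in luteolin replicates 1, 2 and 3. All luteolin libraries lay above all control libraries, as for 15.9% of all genes tested. The mean of 6.90 ± 3.31 CPM in the luteolin group was 6.63-fold that of the control group, 1.04 ± 0.358 CPM (SD, n = 3 each). The fitted log2 difference was 2.73 (standard error 0.55) with an unadjusted p of 0.00170 and an adjusted p of 0.0665 in edgeR's quasi-likelihood test. Beside this, the summed level of 10 fibroblast genes was 4414, 5526 and 2366 CPM in luteolin replicates 1, 2 and 3 against 1549 to 1740 CPM in the control libraries, that of 11 keratinocyte genes 20.8 to 9307 against 13.9 to 18.5 CPM, and that of 8 endothelial genes 130 to 346 against 107 to 127 CPM. The part of these cell types in the level of Gpc3 was not tested.

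Among the other glypicans, Gpc4 had 2.35, 1.96 and 2.40 CPM in the control libraries and 5.31, 13.1 and 5.85 CPM in the luteolin libraries, and Gpc2 had 0.243, 0.587 and 0.465 against 1.13, 6.37 and 1.33 CPM. Both were up-regulated at the study's threshold, with log2 fold changes of 1.85 (adjusted p = 0.0936 in edgeR) and 2.77 (adjusted p = 0.141). For both, luteolin replicate 2 was the highest library, as for Gpc3, and the log2 fold change of Gpc2 was 1.53 without it and 1.29 with voom. Gpc1 had 155 ± 28.3 CPM in the control group and 176 ± 13.7 CPM in the luteolin group, with overlapping groups. Of 5 other glypicans, 4 were tested, and 2 of them were up-regulated and 0 down-regulated at the study's threshold. Shares of 11.3% and 1.52% of all genes tested met it. The median log2 fold change of the 4 was 1.03, against -0.0073 over all genes tested.

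Levels can be compared between genes only per length, and CPM was therefore divided by the exon length of each gene in GENCODE M21. On this scale the mean over the 6 libraries was 18.1 CPM per kilobase for Alb, 14.0 for Afp, 1.48 for Gpc3, 1.31 for Apoa2, 1.26 for Ahsg, 0.792 for Apoa1, 0.301 for Fgb, 0.135 for Ttr, 0.0839 for Apob and 0.0210 for Hnf4a. Afp, at 9.69 to 19.8 CPM per kilobase, lay above every library of every other gene except Alb. Alb overlapped Afp, with 0.371 to 56.6 CPM per kilobase, and was above it in control replicate 2 and in luteolin replicates 1 and 3. From Gpc3 to Apob, each gene overlapped the next in its range over the libraries, and Apob and Hnf4a both included 0.

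The genes whose levels across the 6 libraries were most like those of each gene were picked by the root mean square difference of centred log2 CPM (prior count 2). For Alb they were Serpina6, which encodes corticosteroid-binding globulin, Apoa1 and Mat1a, an enzyme that makes S-adenosylmethionine, at 0.48, 0.49 and 0.54 on the log2 scale, against a range of 7.21 for Alb itself. The genes nearest to Fgb were Gc, the vitamin D-binding protein, Apob and Serpina6, at 0.19, 0.23 and 0.26. Ahsg was nearest to Gc, Fgb and Serpina6, Apob to Serpina6, Fgb and Gc, Apoa1 to Fgg, Alb and Mat1a, Apoa2 to F2, Ambp and Fabp1, and Ttr to Apoh, C8a and Cyp3a41b. Most of these encode plasma proteins or liver enzymes. The neighbours of Afp were Hapln3, Zswim7 and Ttc16, at 0.08, 0.08 and 0.09 on the log2 scale, and those of Gpc3 were Pcsk5, Kcnj15 and Prokr2, at 0.21, 0.21 and 0.29. None of these 6 belongs to the lists of liver genes.

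The wider hepatocyte programme was followed with 7 lists, of which 108 of 163 genes in the table were tested. The library order of Alb, with luteolin replicate 1 highest and control replicate 2 above both other control libraries, was defined after the values had been seen and occurred in 331 of the 14963 genes tested (2.21%). It was found for 17 of 31 other plasma protein genes, among them Gc (1.56 CPM in control replicate 2 and 3.77 in luteolin replicate 1, with 0 counts in control replicates 1 and 3) and Serpina1a, an α1-antitrypsin gene (3.58 and 9.50 CPM, with 0.243 and 0.155 CPM in control replicates 1 and 3). It was found for 5 of 22 metabolic enzymes and transporters, among them Cps1 and Mat1a, and for 2 of 10 liver transcription factors. In the acute phase list 2 of 14 genes had it, both of them fibrinogen chains (Fga and Fgg), and in the apolipoprotein list 1 of 14 (Apoh). The lists share some genes, and Fga, Fgg and Apoh are already counted among the 17 plasma protein genes. No gene among 20 oncofetal and hepatoma genes or 4 glypicans had it.

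**Figure D4:**
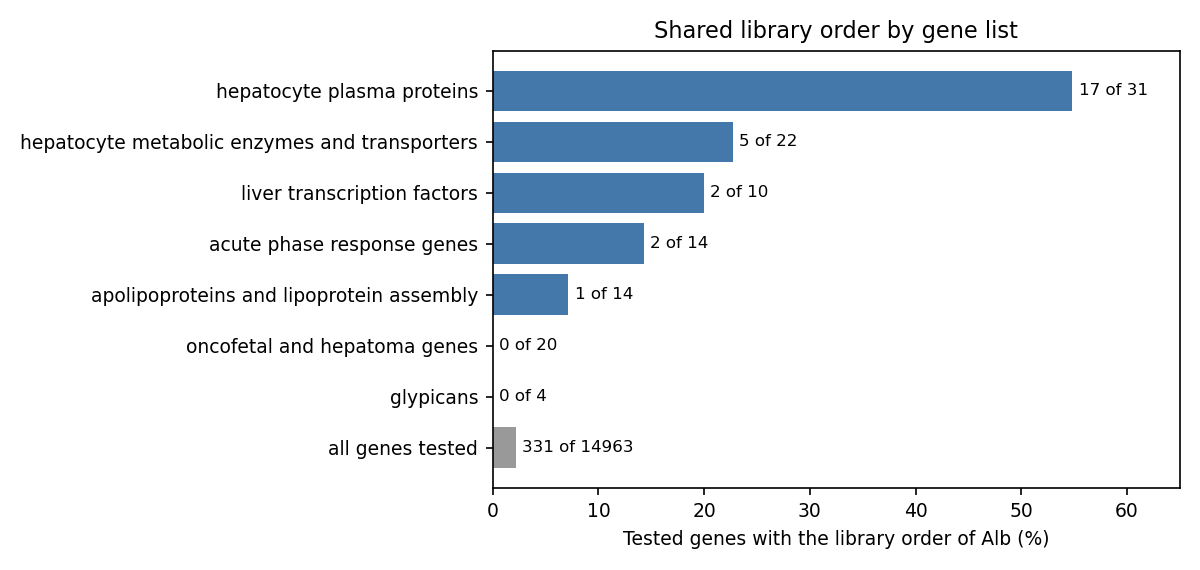
Share of the tested genes of each list that had the library order of Alb, in percent, with the number of genes beside each bar; the grey bar is the share among all genes tested. Plasma proteins reach 17 of 31, and the oncofetal list and the glypicans are at 0. The genes counted in the acute phase and apolipoprotein lists are also counted among the plasma proteins.

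Other plasma protein genes had a pattern of their own. Trf, which encodes the iron carrier transferrin, had 347, 294 and 322 CPM in the control libraries and 122, 125 and 283 CPM in the luteolin libraries, with a log2 fold change of -0.86 (adjusted p = 0.219 in edgeR). Hp, the haemoglobin scavenger haptoglobin, had 4.04, 8.71 and 58.1 CPM against 104, 362 and 37.5 CPM. Its log2 fold change was 2.83 with an unadjusted p of 0.0491 and an adjusted p of 0.243, and the unadjusted p was 0.0588 to 0.168 in edgeR without control replicate 1 or 2 or luteolin replicate 1 or 2. The log2 fold change of Hp was 4.72 without control replicate 3 and 1.61 without luteolin replicate 2. Hpx, the haem scavenger hemopexin, had 3.48, 3.35 and 1.72 CPM against 9.57, 53.7 and 5.60 CPM. It was up-regulated at the study's threshold, with a fitted log2 difference of 3.01 (standard error 0.88, adjusted p = 0.135 in edgeR), which was 1.43 without luteolin replicate 2 and 1.57 with voom. In all, 5 of the 31 tested plasma protein genes were up-regulated and 0 down-regulated at the study's threshold (11.3% and 1.52% of all genes tested), and the median log2 fold change of the list was 1.53.

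The acute phase list, genes that the liver and other tissues raise in inflammation, had a median log2 fold change of 2.12. The median over all genes tested was -0.0073. At the study's threshold, 7 of its 14 tested genes were up-regulated and 0 down-regulated, against 11.3% and 1.52% of all genes tested. Hp and Hpx are among these 7 and also among the 5 plasma protein genes counted above. Saa3, a serum amyloid A made mainly outside the liver, rose from 3.36, 3.68 and 6.59 CPM in the control libraries to 283, 278 and 47.3 CPM in the luteolin libraries, a fitted log2 difference of 5.48 (standard error 0.76, adjusted p = 0.0332 in edgeR). Its groups did not overlap, and the adjusted p was 0.124 to 0.214 when any control library or luteolin replicate 1 was left out and 0.0902 with the replicate block. The receptor subunit gene Il6st and the transcription factor gene Stat3, through which interleukin-6 signals, had log2 fold changes of 0.37 and 0.89 (adjusted p = 0.27 and 0.139 in edgeR). Summed levels of 10 haematopoietic genes were 274 to 319 CPM in the control libraries and 568 to 912 CPM in the luteolin libraries, and those of 12 macrophage genes were 2193 to 2838 and 2805 to 4500 CPM. The part of these cells in the acute phase genes was not tested.

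Among metabolic enzymes and transporters, 4 of 22 tested genes were up-regulated and 0 down-regulated at the study's threshold. Over all genes tested the shares were 11.3% and 1.52%, and the median log2 fold change of the list was 1.24. Ass1, which makes argininosuccinate in the urea cycle and in arginine synthesis, rose from 3.78, 5.00 and 6.13 CPM to 49.8, 54.6 and 32.7 CPM, a fitted log2 difference of 3.20 (standard error 0.30, adjusted p = 0.0292 in edgeR). It was the only gene of this list at an adjusted p under 0.05, and the adjusted p was 0.117 to 0.207 without luteolin replicate 1 or any control library. Of the genes named for their CPM, which is not corrected for length, Arg1 had 370 ± 23.8 and 599 ± 293 CPM in the control and luteolin groups, Glul 158 ± 9.32 and 189 ± 32.6 CPM, and Asl 56.3 ± 5.60 and 53.8 ± 2.22 CPM, and for each the groups overlapped. Abcb11, the bile salt export pump, had a log2 fold change of -0.80 (adjusted p = 0.385).

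Liver transcription factors were low or split in direction. Of 22 listed factors 10 were tested, and 2 were up-regulated (Cebpa and Hhex) and 2 down-regulated (Foxa3 and Nr1h4) at the study's threshold. The shares among all genes tested were 11.3% and 1.52%, and the median log2 fold change of the list was 0.66. Foxa3 had 1.03, 0.819 and 1.10 CPM in the control libraries and 0.343, 0.191 and 0.391 CPM in the luteolin libraries, a fitted log2 difference of -1.67 (standard error 0.56, adjusted p = 0.169 in edgeR), and the unadjusted p was 0.0518 to 0.0624 without control replicate 1 or 3 or luteolin replicate 1 or 2. Cebpa, also a factor of fat and myeloid cells, had 16.4, 14.1 and 15.0 CPM against 26.4, 121 and 21.7 CPM, a fitted log2 difference of 1.90 (adjusted p = 0.178). The highest Cebpa was in luteolin replicate 2, without which the fitted log2 difference was 0.69, and without any 1 control library the unadjusted p was 0.0600 to 0.0699 in edgeR. Cebpb and Tbx3 had log2 fold changes of 1.02 and 0.45 with overlapping groups. The summed level of 8 adipocyte genes was 14.5 to 74.2 CPM in the control and 19.5 to 372 CPM in the luteolin libraries, and its part in Cebpa was not tested.

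Oncofetal and hepatoma genes other than Afp and Gpc3 showed no common direction. Of 20 tested genes, 2 were up-regulated (Peg3 and Sox9) and 0 down-regulated at the study's threshold (11.3% and 1.52% of all genes tested). The median log2 fold change of the list was 0.04. For both Peg3 and Sox9 the groups overlapped. Sox9 had 0, 0.494 and 0.0620 CPM in the control libraries and 0.327, 12.1 and 0.720 CPM in luteolin replicates 1, 2 and 3, so that its high level was in luteolin replicate 2 alone. Spp1, which encodes osteopontin, had 2222, 2210 and 2544 CPM in the control libraries and 977, 1010 and 1676 CPM in the luteolin libraries. Its log2 fold change of -0.93 (standard error 0.23) had an unadjusted p of 0.00519 and an adjusted p of 0.101 in edgeR. Hmga2 and Sox4, both regulators active in embryonic tissue, had 349 ± 92.7 and 191 ± 21.4 CPM in the control group and 366 ± 171 and 221 ± 70.0 CPM in the luteolin group. Zhx2, a repressor of Afp in adult liver, had a log2 fold change of 0.81 (unadjusted p = 0.0146, adjusted p = 0.150).

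In the apolipoprotein and lipoprotein list, 3 of 14 tested genes were up-regulated and 0 down-regulated at the study's threshold. Over all genes tested the shares were 11.3% and 1.52%, and the median log2 fold change of the list was 0.62. Abca1, the cholesterol exporter that loads apolipoprotein A-I, rose from 50.8, 49.1 and 68.6 CPM to 111, 111 and 139 CPM, a fitted log2 difference of 1.10 (standard error 0.19, adjusted p = 0.0493 in edgeR). The groups did not overlap, but the adjusted p was 0.0820 to 0.277 when any library other than luteolin replicate 2 was left out, 0.0825 with the replicate block, 0.0532 with RLE factors and 0.0586 without the filter on low counts. Mttp, which loads lipid onto apolipoprotein B, had a log2 fold change of -0.68 (adjusted p = 0.195). Apoe and Lrp1, expressed in many cell types, had 425 ± 157 and 630 ± 142 CPM in the control group and 636 ± 221 and 766 ± 48.8 CPM in the luteolin group.

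Simple epithelial and yolk sac genes were examined because such cells also express members of this programme. Krt18 had 247 ± 20.7 CPM in the control group and 212 ± 20.8 CPM in the luteolin group, and Epcam 127 ± 7.92 and 69.8 ± 28.7 CPM. Of the 10 tested epithelial genes, 3 were up-regulated and 0 down-regulated at the study's threshold (11.3% and 1.52% of all genes tested). These were Cdh1 (28.6, 151 and 20.3 CPM in luteolin replicates 1, 2 and 3), Cldn4 (3.31, 30.3 and 1.06) and Esrp1 (2.17, 62.7 and 0.329). For each, every control library lay lower. Each was highest in luteolin replicate 2, which also had the most keratinocyte RNA. The part of keratinocytes in these levels was not tested. The 12 listed epithelial genes summed to 410 to 436 CPM in the control and 320 to 584 CPM in the luteolin libraries. In the visceral endoderm and yolk sac list, Rhox5 and Dab2 had 236 ± 16.9 and 69.6 ± 13.5 CPM in the control group and 244 ± 25.2 and 98.8 ± 8.82 CPM in the luteolin group. That list summed to 361 to 394 and 373 to 426 CPM. At the study's threshold, 1 of its 8 tested genes was up-regulated and 1 down-regulated, against 11.3% and 1.52% of all genes tested. It includes Afp, Apoa1 and Ttr.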

How the data were processed

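RNA-seq was analysed for 3 control and 3 luteolin tumours. Per gene symbol, the authors deposited whole numbers, which were analysed as unscaled estimated counts. Of values from 1 to 40, 70.3% lie on multiples of 4 or 1 above. The authors used DESeq2 for their own comparison. The submitters' processing notes also name bcl2fastq 2.0, HISAT2, StringTie and the builds mm39 and rn6, whose roles are not given in the sources used here. All 6 columns were used, with 0 left out. Gene symbols that share sequence with copies, such as the Serpina1 genes, may split counts.

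Counts were compared in R 4.3.3 with edgeR 4.0.16 (TMM, filterByExpr, quasi-likelihood test, no covariates, two-sided, Benjamini-Hochberg over 14963 genes). At the study's threshold, p without adjustment was under 0.05 and the log2 fold change beyond 1 in either direction. Standard errors are the log2 fold change over the root of F. Alternatives were RLE and upper-quartile factors, DESeq2 1.42.0, voom of limma 3.58.1, no filter, at least 10 counts in every library, a block for the replicate number, each library left out, and, chosen after seeing the data, values divided by 4. The scripts were tested on simulated data. Exon lengths are from GENCODE M21.

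The genes followed and all lists were chosen with earlier results of these data known. Genes named from the lists are the 3 with the highest mean CPM, the smallest p in each direction and those at an adjusted p under 0.05 (in lists of other cell types at most the 2 highest); Gc, Serpina1a and others named for a count or the library order of Alb were chosen after their values were seen. Some genes that this rule names are not reported here.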

Additional observations from a re-analysis of the deposited data

How the results depend on the processing

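The 9 tested genes kept their direction under each alternative that gave them a value, except Apoa1 without luteolin replicate 1 (log2 fold change -0.0466). With each library left out, log2 fold changes ranged from -0.0466 to 4.55 for Apoa1, from 0.435 to 5.02 for Alb, from 0.48 to 4.10 for Apoa2, from 0.262 to 9.92 for Apob, from 0.770 to 9.92 for Fgb, from 1.18 to 11.3 for Ahsg, from 1.30 to 7.15 for Ttr, from 2.44 to 3.03 for Gpc3 and from -0.74 to -0.46 for Afp. The highest value of each plasma protein gene is that without control replicate 2, where the remaining control libraries of Apob, Fgb, Ahsg and Ttr are at 0 and the value depends on the prior count. DESeq2 gave no value for Alb, Apob and Fgb, the minimum of 10 counts in every library left Alb, Afp and Gpc3, and Apoa2 and Ttr were not tested with values divided by 4. At an adjusted p under 0.05, Gpc3 passed with DESeq2 (log2 fold change 2.71), voom (3.18) and at least 10 counts in every library (2.74), so that 1 gene of the 10 was then higher, and Afp passed with voom (-0.87), 1 gene lower. No other alternative called any of the 9 at that level. Without control replicate 2, 8 of the 10 met the study's threshold, and 1 without any other library; the low counts of Hnf4a and Ttr limit what could be detected.

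At an adjusted p under 0.05, edgeR called 200 of all tested genes higher and 28 lower. The counts were 1543 and 415 with DESeq2, 1886 and 1311 with voom, 345 and 47 with at least 10 counts in every library, 327 and 46 with values divided by 4, and 0 to 276 and 0 to 36 with each library left out. Both were 0 without any 1 control library or luteolin replicate 1, where 1907 to 2462 genes had an unadjusted p under 0.05. Of the 108 genes of the wider lists tested in edgeR, 3 were higher and 0 lower, beside shares of 1.34% and 0.187% of all genes tested. These list counts were 22 and 2 with DESeq2, 20 and 5 with voom, and 0 to 4 and 0 to 2 with a library left out. At the study's threshold, 1687 genes were higher and 227 lower, with 498 lower in voom, and 1139 to 2104 and 140 to 305 with a library left out. There, 23 of the 108 tested genes of the wider lists were higher and 2 lower, beside shares of 11.3% and 1.52% of all genes tested. The number lower was 6 with voom, 1 with at least 10 counts in every library and 1 with values divided by 4. With a library left out, 16 to 35 were higher and 0 to 3 lower.

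With the replicate block, 34 genes were higher and 1 lower at an adjusted p under 0.05, 1 gene of the wider lists was higher, and 0 were lower at the study's threshold. It changed no call among the 10, but the log2 fold changes became 3.75 for Alb, 6.25 for Ahsg, 5.24 for Fgb, 5.10 for Apob, 3.37 for Ttr, 3.24 for Apoa1 and 2.18 for Apoa2. The deviations of same-numbered libraries had correlations of -0.196, -0.0920 and 0.0630, and 1 of the 6 libraries was most like its own number. These values gave no sign that the number pairs the libraries, but with 3 libraries in each group they cannot exclude it. Of the other genes named, those near 0 changed sign: Asl with voom (0.0126), Hmga2 with the replicate block (-0.0327) and with a library left out (-0.159 to 0.435), and Sox4 with a library left out (-0.0311 to 0.446). At a prior count of 0.5, Alb and Apoa2 each shared 1 of their 3 nearest genes. Scaling to the unscaled total moved no group mean by more than 1 SD.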
